A study of Caenorhabditis elegans with 40 samples.

Results

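The contractile machinery of muscle was followed through 34 genes of Caenorhabditis elegans, taken by gene name from the 42048 features of the deposited tables: 10 genes of the thick filament, 7 of the thin filament, 10 troponin genes, 3 genes of giant filament proteins and 4 of muscle attachment proteins. By their known sites of use, 14 were grouped as body wall forms, 5 as pharyngeal forms and 14 as shared between muscles, and myo-5 was assigned to neither. Polyadenylated RNA of whole animals fed E. coli OP50 was sequenced in 40 libraries, 5 for each of 8 groups. Both genotypes, the wild type N2 and octr-1(ok371), which carries a mutant allele of the gene for a neuronal octopamine receptor, were sampled at 4 points: young adults grown at 20 °C, and old animals that had reached day 14 (20 °C), day 24 (15 °C) or day 9 (25 °C). Temperature and days of adulthood change together among the old groups and cannot be told apart. All 4 mutant groups carry the same single allele. The labels do not say whether the 5 libraries of a group came from separate cultures, so every p-value below measures the spread between these libraries only.

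In muscle, myosin motors bundled into thick filaments pull on actin thin filaments, and calcium bound to troponin on the thin filament releases tropomyosin and lets the motors bind. Giant proteins of the titin family run along the thick filaments, and attachment proteins tie both sets of filaments through the cell membrane to the cuticle. The worm builds its body wall muscles, used for crawling, and its pharynx, a rhythmic feeding pump, from partly different genes for the same part: UNC-54 and MYO-3 are the heavy chains of body wall myosin, and MYO-1 and MYO-2 those of pharyngeal myosin. Slowing of both movement and pumping is a well known feature of worm ageing.

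Each library held 27.88 to 41.0 M reads assigned to genes. Of the 34 genes, 32 had reads in every library, from 33 reads (tnc-2 in a mutant library at 15 °C) to 50943 (act-2 in a young mutant library). The actin genes act-1 and act-3 were listed at 0 in all 40 libraries. They have near-identical copies, the way multi-mapped reads were counted is not given in the sources used here, and the values of act-2 and act-4 are uncertain for the same reason. The strand setting of the counting is not given either, and mlc-1, mlc-2, act-4, unc-87, tni-4, tnc-2, unc-22, deb-1 and unc-112 overlap an annotated gene on the opposite strand, so their reads may include that gene's. Levels of all groups are given as CPM, counts scaled to a common library size with TMM (a trimmed mean that aligns the bulk of genes) over all 40 libraries. Levels are compared between genes only as CPM per kb of annotated exon. The octr-1 gene had 27 to 51 reads in the young wild type against 10 to 19 in young mutants, and 175 to 235 in old wild-type libraries against 30 to 51 in old mutants, so its reads were lower in the mutants at each age. Defining markers of both muscles (unc-54, myo-3, myo-1 and myo-2) were present in every library. Because whole animals were sequenced, fewer muscle cells and less RNA per muscle cell cannot be told apart. Any reads of the members from cells other than muscle, the shared genes included, are counted in their values.

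Per length of exon, the levels of the young wild type ran from 1460 ± 128 CPM per kb for the actin act-2 (SD, n = 5) down to 0.252 ± 0.080 for ttn-1, a titin-like giant. Leaving out unc-60 (below), the next were the troponin C gene pat-10 at 536 ± 44.8, the myosin regulatory light chain mlc-2 at 479 ± 39.0, the troponin I gene unc-27 at 324 ± 18.5 and act-4 at 303 ± 44.9. The last 2 differed by less than the SD of act-4. The tropomyosin gene lev-11 at 169 ± 18.95 and the troponin T gene tnt-2 at 163 ± 17.7 differed by less than either SD. The major heavy chain unc-54 reached 109 ± 13.9 CPM per kb and myo-3 8.75 ± 0.995, whereas the pharyngeal chains myo-2 and myo-1 stood at 1.68 ± 0.54 and 1.61 ± 0.54 and did not differ beyond their spread. In old wild-type animals at 20 °C act-2 was at 631 ± 15.1 and act-4 at 218 ± 11.4, and tnt-2 had gone from place 8 of 34 to place 18 with 12.0 ± 2.51 CPM per kb. The attachment gene unc-112 was at 32.1 ± 0.75, above unc-54 at 17.0 ± 4.70. For unc-60, a cofilin, the level per length is uncertain, because its annotated exons of 717 bp overlap another gene (F53E2.2) on the same strand.

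All 34 genes together took 0.481% ± 0.038 of the reads in the young wild type (SD, n = 5) and 0.273% ± 0.012 in the old wild type at 20 °C. In mutants the shares were 0.492% ± 0.031 and 0.270% ± 0.0089. In these shares the libraries of the young and old groups did not overlap, with the old groups lower.

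The first question of the design is what age does at 20 °C within each genotype. Of the 14 body wall genes, 11 fell with age in each genotype, by up to 13.4-fold in the wild type and 20.2-fold in mutants (tnt-2), whereas 3 rose in the wild type and 2 in mutants. In the same comparisons the largest difference among the pharyngeal forms was 1.79-fold (myo-1 in mutants). In the wild type, 22 of the 32 tested members fell and 5 rose at an adjusted p under 0.05 (edgeR quasi-likelihood test on recovered reads, Benjamini-Hochberg over all genes tested), against 39.2% lower and 45.9% higher among all 14770 genes tested. In mutants 25 fell and 5 rose, against 40.2% lower and 45.1% higher among all genes. The median log2 fold change of the members was -0.996 in the wild type and -1.15 in mutants, where that of all genes was 0.09 and 0.07.

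The myosin heavy chains of the body wall were lower in every old library than in every young one. unc-54 stood at 804, 563, 687, 653 and 669 CPM in the young wild type and at 110.4, 86.9, 137, 65.8 and 127 CPM in the old. In mutants it stood at 755, 646, 646, 769 and 919 CPM when young and 93.0, 86.6, 92.0, 105 and 84.0 CPM when old. The groups lay far apart, and the fall was 6.32-fold in the wild type (log2 fold change -2.66, SE 0.21, adjusted p = 1.1e-06, edgeR) and 7.95-fold in mutants (-2.99, SE 0.11, adjusted p = 2.3e-09, edgeR). The SE of an edgeR value is the log2 fold change divided by the square root of its F statistic. myo-3, the heavy chain of the filament centre, had 63.1, 47.9, 55.2, 49.5 and 51.4 CPM in the young wild type and 26.2, 24.2, 29.8, 17.1 and 28.7 CPM in the old. Young mutants had 70.8, 56.4, 62.7, 67.7 and 79.9 CPM and old ones 23.9, 27.05, 28.8, 32.9 and 28.8 CPM. Here too no old library reached a young one, but the fall was smaller, 2.09-fold (log2 -1.07, SE 0.13) in the wild type and 2.34-fold (-1.22, SE 0.10) in mutants.

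The heavy chains of the pharynx overlapped between ages, except myo-1 in mutants, where the lowest young library (7.95 CPM) lay just above the highest old one (7.86 CPM) and the ages overlapped on the scale of the test. myo-1 had 15.2, 7.20, 12.6, 9.72 and 7.29 CPM in the young wild type and 8.14, 6.68, 8.52, 5.44 and 8.27 CPM in the old. In mutants it had 7.95, 12.7, 11.4, 13.3 and 14.7 CPM and then 6.18, 6.18, 6.52, 7.86 and 6.23 CPM. The wild-type difference missed the threshold (log2 -0.47, SE 0.22, adjusted p = 0.069, edgeR), and the fall in mutants passed it (-0.84, SE 0.13, adjusted p = 4.1e-05, edgeR). Without the young wild-type library of replicate 2 or 5 the wild-type value was -0.58 or -0.57 and past the threshold, as it was with DESeq2 (-0.50). myo-2 had 14.7, 6.84, 13.5, 10.1 and 8.11 CPM in the young wild type against 9.88, 6.89, 12.7, 6.62 and 10.7 CPM in the old, and young mutants had 8.25, 11.6, 10.97, 13.6 and 14.4 CPM against 8.98, 8.74, 9.66, 9.65 and 8.45 CPM. The ages overlapped in both genotypes, with a log2 value of -0.17 (SE 0.26, adjusted p = 0.57, edgeR) in the wild type and -0.35 (SE 0.11, adjusted p = 0.0083, edgeR) in mutants. The mutant call was lost without the old library of replicate 1, 2 or 5, at -0.28, -0.27 and -0.26.

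**Figure D1:**
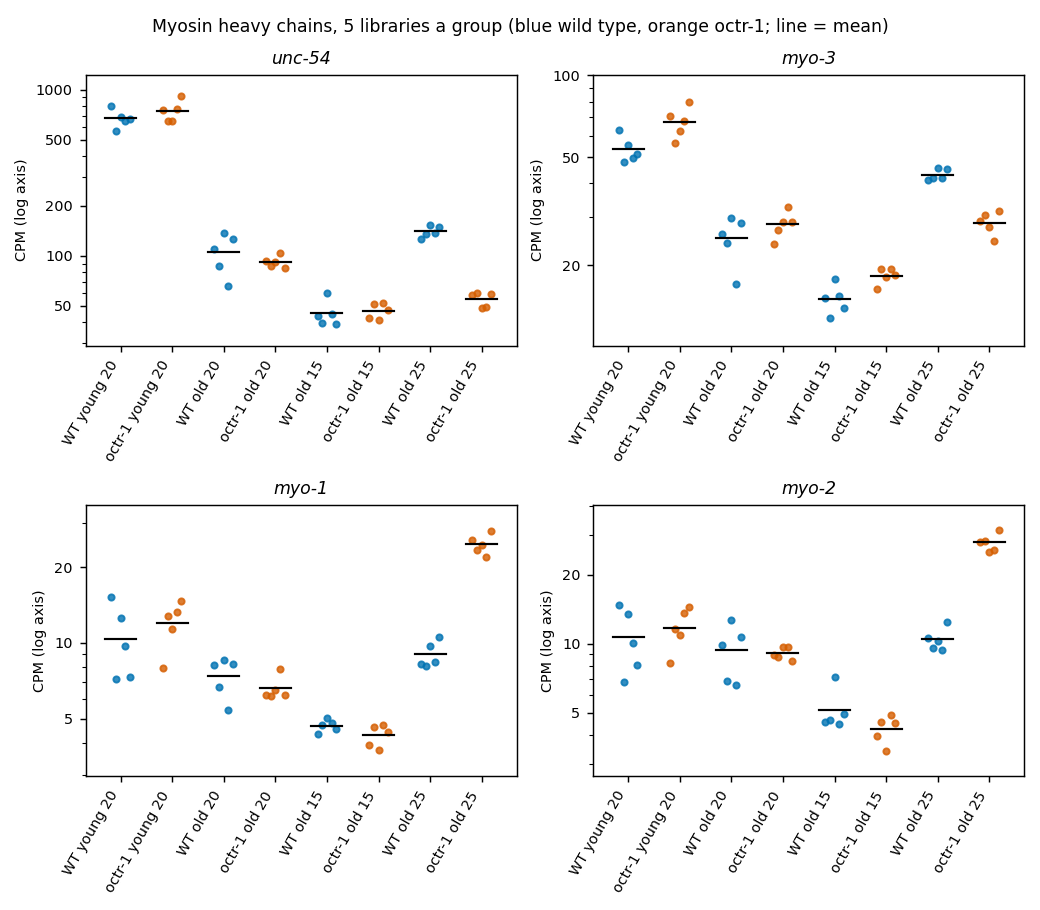
CPM on a log axis of the 4 muscle myosin heavy chains in the 8 groups, with each point a library (blue wild type, orange octr-1), the line the group mean, and 15, 20 and 25 the temperature in °C. The old groups of unc-54 all lie below the young ones, and the libraries of old mutants at 25 °C are the highest of all for myo-1 and myo-2.

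The rest of the thick filament, myo-5 excepted, fell in both genotypes. In the wild type, log2 fold changes were -2.28 for unc-15, the paramyosin of the filament core, -2.57 and -2.63 for the regulatory light chains mlc-1 and mlc-2, and -2.52 for the essential light chain mlc-3. The myosin chaperone gene unc-45 fell less, by 0.68 in the wild type and 0.54 in mutants on the log2 scale, and the mutant call was lost with the total of reads alone. myo-5, a further muscle-type heavy chain, was the thick filament gene that rose, by 0.37 (SE 0.12, adjusted p = 0.0069, edgeR) in the wild type and 0.26 in mutants. Counted over the thick filament, 7 of 10 genes fell and 1 rose in the wild type, and 9 fell and 1 rose in mutants. The shares of all genes were 39.2% lower and 45.9% higher in the wild type, and 40.2% and 45.1% in mutants.

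All 5 tested thin filament genes fell in both genotypes, where 39.2% of all genes were lower in the wild type and 40.2% in mutants. In the wild type the log2 fold changes were -1.19 for act-2, -0.45 for act-4, -1.74 for lev-11, -0.53 for unc-60 and -1.90 for unc-87, a calponin-related protein that bundles actin. The falls of act-4 and unc-60 depended on the scaling. Scaled by the total of reads alone, act-4 was at 0.13 and unc-60 at 0.05 in the wild type, where neither passed the threshold. In mutants act-4 went from -0.50 to 0.03 and was not called, and unc-60 went from -0.41 to 0.13 and was called higher.

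The troponins divided by muscle. Among the body wall forms, tnt-2 had 289.6, 216, 248, 237 and 243 CPM in the young wild type and 17.2, 14.9, 23.8, 14.9 and 20.1 CPM in the old. Young mutants had 232, 206, 200.2, 252 and 249 CPM and old mutants 12.0, 10.6, 10.7, 11.8 and 10.1 CPM. It was the deepest fall of the 32 members in both genotypes (log2 -3.74, SE 0.14, adjusted p = 1.8e-10, and -4.34, SE 0.08, adjusted p = 2.7e-15, edgeR), and no old library came near a young one. The other body wall troponins fell by 0.93 (the troponin I gene tni-1) to 2.73 (pat-10) on the log2 scale in the wild type, and by 1.33 to 3.03 (unc-27) in mutants. The troponin T genes mup-2 and tnt-3 both stood at -2.23 in the wild type. Of the pharyngeal forms, the troponin C gene tnc-2 rose, by 0.66 (SE 0.11, adjusted p = 2.1e-05, edgeR) in the wild type and 0.38 in mutants. The troponin T gene tnt-4 stood at -0.03 and -0.51 and passed the threshold in neither genotype. With DESeq2, or without the filter on low values, tnt-4 was called lower in mutants. The troponin I gene tni-4 stood at -0.10 in the wild type and fell by 0.26 in mutants. Under scaling by the total of reads alone tni-4 was called higher in both, at 0.48 and 0.28, and tnt-4 was called higher in the wild type at 0.55.

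Giant and attachment genes did not move as a block. ttn-1 rose, from 21.1, 11.3, 16.2, 10.7 and 11.4 CPM in the young wild type to 36.1, 26.0, 37.5, 23.5 and 33.9 CPM in the old, and from 19.2, 14.2, 15.3, 18.04 and 18.5 CPM to 36.5, 47.1, 47.3, 45.7 and 47.7 CPM in mutants. All old libraries were above all young ones, and ttn-1 was the largest rise of the members in both genotypes (log2 1.16, SE 0.22, adjusted p = 0.00070, and 1.42, SE 0.09, adjusted p = 1.3e-09, edgeR). Twitchin, from unc-22, fell by 0.84 and 0.68 (not called in the wild type with the total of reads alone), and unc-89, an obscurin-like giant of the filament centre, stood at -0.12 in the wild type (0.46 and called with the total of reads alone) and rose by 0.38 in mutants. Exons of unc-22 overlap ZK617.26 and ZK617.7. The exons of these 3 genes sum to 23368 (unc-22), 25942 (unc-89) and 56044 bp (ttn-1). Among the 49 tested genes with over 10 kb of exon, 71.4% were higher and 16.3% lower with age in the wild type with a median log2 fold change of 0.64, against 45.6%, 38.9% and 0.12 among the 4007 genes of up to 1 kb. In mutants 79.6% of the genes over 10 kb were higher and 18.4% lower, with a median of 0.92. The part of gene length in the rise of ttn-1 was not tested. Of the attachment genes, deb-1, the worm vinculin, fell by 0.77 and 0.76, and unc-95, a LIM domain protein of the dense bodies, by 1.91 in both genotypes. unc-112, the worm kindlin, rose by 0.75 and 0.64, and unc-97, the worm PINCH, rose by 0.21 in the wild type and stood at 0.00 in mutants.

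Among all genes tested 39.2% were lower and 45.9% higher with age in the wild type, and 40.2% and 45.1% in mutants. By form, 11 of 14 body wall genes fell and 3 rose in the wild type with a median log2 fold change of -1.77. In mutants 11 fell and 2 rose with a median of -1.92. Of 12 tested shared genes, 11 fell in each genotype, with medians of -1.46 in both. Of the 5 pharyngeal genes, 1 rose in the wild type and 4 did not pass (median -0.10), and 3 fell and 1 rose in mutants (median -0.35). With DESeq2 1 rose and 1 fell in the wild type, and 1 rose and 4 fell in mutants. The summed level of the body wall genes went from 2199 ± 214 to 514 ± 68.5 CPM in the wild type (SD, n = 5), and that of the pharyngeal genes from 44.9 ± 9.13 to 40.6 ± 4.46. No test compared these sums.

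The direction of the smaller differences depended on the scaling. With the total of reads as the only scaling, the median of all genes moved by 0.58 in the wild type and 0.54 in mutants, beside which the 10 most abundant features held 9.70% of reads in the young wild type and 5.19% in the old. Features with reads numbered 17136 to 17706 in the libraries of the young wild type and 22277 to 22498 in those of the old. In mutants they numbered 17832 to 18406 and 22736 to 23677. The part of either measure in the shift was not tested. The counts of members became 8 higher and 19 lower in the wild type and 8 higher and 20 lower in mutants. Of the pharyngeal genes 3 were then higher in the wild type and 2 higher and 1 lower in mutants, with medians of 0.48 and 0.19. myo-1 then stood at 0.11 and myo-2 at 0.41 in the wild type, and myo-2 at 0.19 in mutants. The body wall counts became 3 higher and 10 lower in the wild type and 3 higher and 11 lower in mutants.

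**Figure D2:**
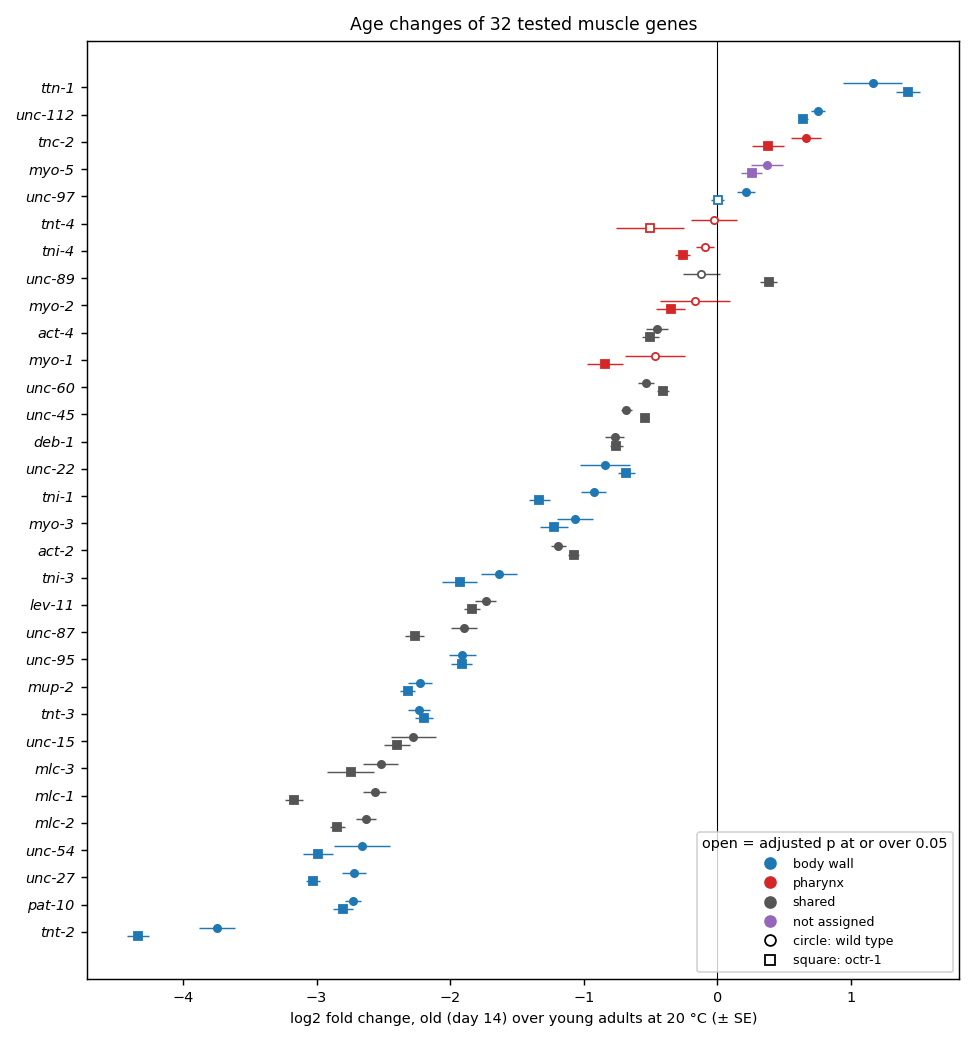
Log2 fold change with age at 20 °C (old over young, ± SE) of the 32 tested genes in the wild type (circles) and octr-1 mutants (squares), coloured by form; open symbols did not pass the adjusted p threshold of 0.05. Body wall genes (blue) reach -4.34 at tnt-2 and pharyngeal genes (red) lie between -0.84 and 0.66.

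Markers of other tissues moved with age as well. Of all genes 39.2% were lower and 45.9% higher in the wild type, and 40.2% and 45.1% in mutants. In the wild type all 10 germline markers fell (median log2 fold change -0.83, summed level 13116 to 15413 CPM in young libraries and 7170.5 to 8427 in old) and 7 of 8 intestine markers fell (median -2.31, 2728 to 3504 against 453 to 515 CPM). All 10 neuron markers rose (median 0.93, 192 to 218 against 289 to 323 CPM), and of 8 epidermis markers 3 rose and 3 fell (847 to 1125 against 239 to 274 CPM). In mutants 9 of 10 germline markers fell (median -0.72), 7 of 8 intestine markers fell (-2.39), 10 of 10 neuron markers rose (0.86), and 4 epidermis markers fell and 1 rose. No marker of these 4 lists was at 0 in any group's libraries, and their part in the muscle values was not tested.

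Whether the effect of the mutation differs between ages at 20 °C was tested as a difference of genotype effects over 20 libraries. Of the 32 genes 2 were higher and 3 lower in that difference, where 11% of all genes were higher and 16.6% lower. mlc-1 had 156, 122, 144, 133 and 136 CPM in the young wild type, 153, 136, 145, 168 and 174 in young mutants, 21.3, 21.1, 28.3, 20.8 and 23.6 in the old wild type and 16.9, 16.8, 16.9, 18.5 and 15.6 in old mutants. The genotypes overlapped when young and not when old, and the difference was -0.58 (SE 0.12, adjusted p = 0.0011, edgeR), the lowest of the members. unc-89 gave the highest, 0.53 (SE 0.17, adjusted p = 0.027, edgeR): 66.6, 49.8, 58.2, 47.2 and 46.7 CPM in the young wild type and 54.3, 42.3, 48.6, 55.01 and 57.2 in young mutants overlapped, whereas 53.4, 43.9, 57.9, 36.3 and 52.6 in the old wild type lay below 62.99, 66.0, 69.3, 65.5 and 65.7 in old mutants. tnt-2 (-0.57), tni-1 (-0.39) and unc-45 (0.16) also passed. Of the 49 genes over 10 kb of exon, 24.5% were higher and 4.08% lower in this difference, and the part of length was not tested. The call of tni-1 was lost without the old wild-type library of replicate 3 or the young mutant library of replicate 5, and that of unc-45 with the total of reads alone. Without the filter on low values 3 genes passed, all lower, so that unc-89 and unc-45 were lost. The split depended on the scaling, with 1 higher and 6 lower under the total of reads only, and 5 were lower without the old wild-type library of replicate 4, the young wild-type library of replicate 1 or the young mutant library of replicate 3.

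The next question is how octr-1 mutants differ from the wild type at each age and temperature. These comparisons share libraries with the comparisons of age. In young adults the differences were small: 4 of 32 genes were higher and 3 lower in mutants (limma on the deposited normalized counts, adjusted p under 0.05), where 19.6% of all genes were higher and 24% lower, and the median log2 fold change was 0.02 against -0.01 for all genes. tni-1 rose most. It had 15.5, 12.2, 13.1, 12.8 and 11.6 CPM in the wild type and 19.8, 15.7, 16.5, 18.9 and 21.1 CPM in mutants, with every mutant library above every wild-type one on the CPM scale, an overlap on the scale of the deposited values, and a log2 fold change of 0.47 (SE 0.09, adjusted p = 0.00067, limma). act-2 fell most, from 1949, 1724, 1692, 1899 and 2088 CPM to 1629, 1766, 1614, 1692 and 1679.7 CPM, where the groups overlapped (-0.18, SE 0.05, adjusted p = 0.0075, limma). The other calls were myo-3 (0.31), myo-5 (0.29), deb-1 (0.13), unc-45 (-0.11) and unc-60 (-0.16). The calls of myo-3, myo-5 and deb-1 were each lost without the wild-type library of replicate 2, 4 or 5. In mutants, leaving out replicate 1 lost myo-3 and deb-1, replicate 2 myo-5, replicate 4 myo-5 and deb-1, and replicate 5 deb-1. The call of deb-1 was also lost without the filter, and that of unc-45 with edgeR under TMM. The calls in both directions together were 4 without the wild-type library of replicate 4 or 5. The higher calls became 1 without the wild-type library of replicate 2, 4 or 5 and 2 without the mutant library of replicate 1 or 4, and scaling by the total of reads alone gave 7 higher and 0 lower, with the median of all genes moved by 0.10.

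In old animals at 20 °C, 3 members were higher and 10 lower in mutants, against 22.8% and 24.7% of all genes. The lower genes were the 3 light chains (mlc-1 -0.42, mlc-2 -0.29, mlc-3 -0.25), unc-87 (-0.33), the troponins tnt-2, unc-27 (-0.33), tni-3 (-0.31), pat-10 (-0.19) and tni-4 (-0.15), and unc-97 (-0.30). The higher genes were ttn-1, unc-89 (0.47) and deb-1 (0.19). tnt-2 fell most, from 17.2, 14.9, 23.8, 14.9 and 20.1 to 12.0, 10.6, 10.7, 11.8 and 10.1 CPM, without overlap (-0.68, SE 0.11, adjusted p = 7.9e-05, limma). ttn-1 rose most, from 36.1, 26.0, 37.5, 23.5 and 33.9 to 36.5, 47.1, 47.3, 45.7 and 47.7 CPM, where 1 mutant library lay within the wild-type range (0.55, SE 0.13, adjusted p = 0.0056, limma). Without the wild-type library of replicate 3 the higher calls became 5, and with the total of reads alone the calls were 6 higher and 9 lower. The call of tni-4 was lost with edgeR under TMM, RLE or total reads, without the filter, and without the wild-type library of replicate 2, 3 or 5 or the mutant library of replicate 1, 3 or 4. That of tni-3 was lost without the filter, without the wild-type library of replicate 3 or 5, and without the mutant library of replicate 2, 3, 4 or 5. That of deb-1 was lost without the wild-type library of replicate 2 or 4 or the mutant library of replicate 2, 3 or 4. Of the heavy chains, none of the 4 passed the threshold, with log2 values of -0.13 for unc-54, 0.20 for myo-3, -0.14 for myo-1 and 0.02 for myo-2. Of the 49 genes over 10 kb of exon, 67.3% were higher and 6.12% lower in this comparison, with a median of 0.22. Of the 4407 genes of up to 1 kb, 17.0% were higher and 30.5% lower (median -0.08). The part of length was not tested.

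At 25 °C the mutants differed from the wild type in 12212 of the 15964 genes tested, and likewise in most of the machinery. All 5 pharyngeal genes rose, by 1.96- to 3.91-fold. The 14 body wall genes were mixed, with 5 higher and 7 lower and a median log2 fold change of -0.10. Among them unc-54, tnt-2, unc-27 and pat-10 fell by 2.003- to 4.76-fold. All 3 giants rose, of which 2 are body wall forms. Of the 32 tested members 12 were higher and 17 lower (limma), against 36.8% and 39.7% of all genes. The median log2 fold change was -0.11 against -0.01 for all genes. With the total of reads as the only scaling, which moved the median of all genes by 0.21, the calls were 15 higher and 14 lower. Under that scaling unc-45 went from -0.09 to 0.12 and was called higher. deb-1 (0.19) and unc-97 (0.19), not called in limma, were then called higher too. unc-112 went from -0.13 to 0.08 and, like mlc-3, was no longer called. No pharyngeal gene changed sign. With edgeR under TMM the call of unc-45 was lost.

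Among the pharyngeal genes, tnt-4 had 3.04, 2.78, 3.48, 2.64 and 3.59 CPM in the wild type and 12.6, 11.3, 12.3, 12.3 and 12.1 CPM in mutants. This was the largest rise of the members (log2 1.97, SE 0.08, adjusted p = 1.5e-16, limma), with no library near the other group. myo-1 went from 8.22, 8.10, 9.76, 8.38 and 10.6 to 25.7, 23.4, 24.4, 21.96 and 27.8 CPM (1.45, SE 0.07), and myo-2 from 10.6, 9.60, 10.3, 9.37 and 12.5 to 28.0, 28.3, 25.2, 25.8 and 31.5 CPM (1.41, SE 0.07). For both pharyngeal myosins every mutant library exceeded every wild-type one. tnc-2 rose by 1.37 (SE 0.07) and tni-4 by 0.97 (SE 0.05), again without overlap. The summed level of the 5 genes was 44.9 ± 2.91 CPM in the wild type and 111 ± 5.12 in mutants (SD, n = 5), and the mutant mean at 25 °C was the highest of the 8 groups. myo-5 rose as well, from 9.64, 8.76, 9.88, 10.1 and 10.2 to 26.7, 25.1, 27.3, 23.9 and 29.9 CPM (1.45, SE 0.06).

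**Figure D3:**
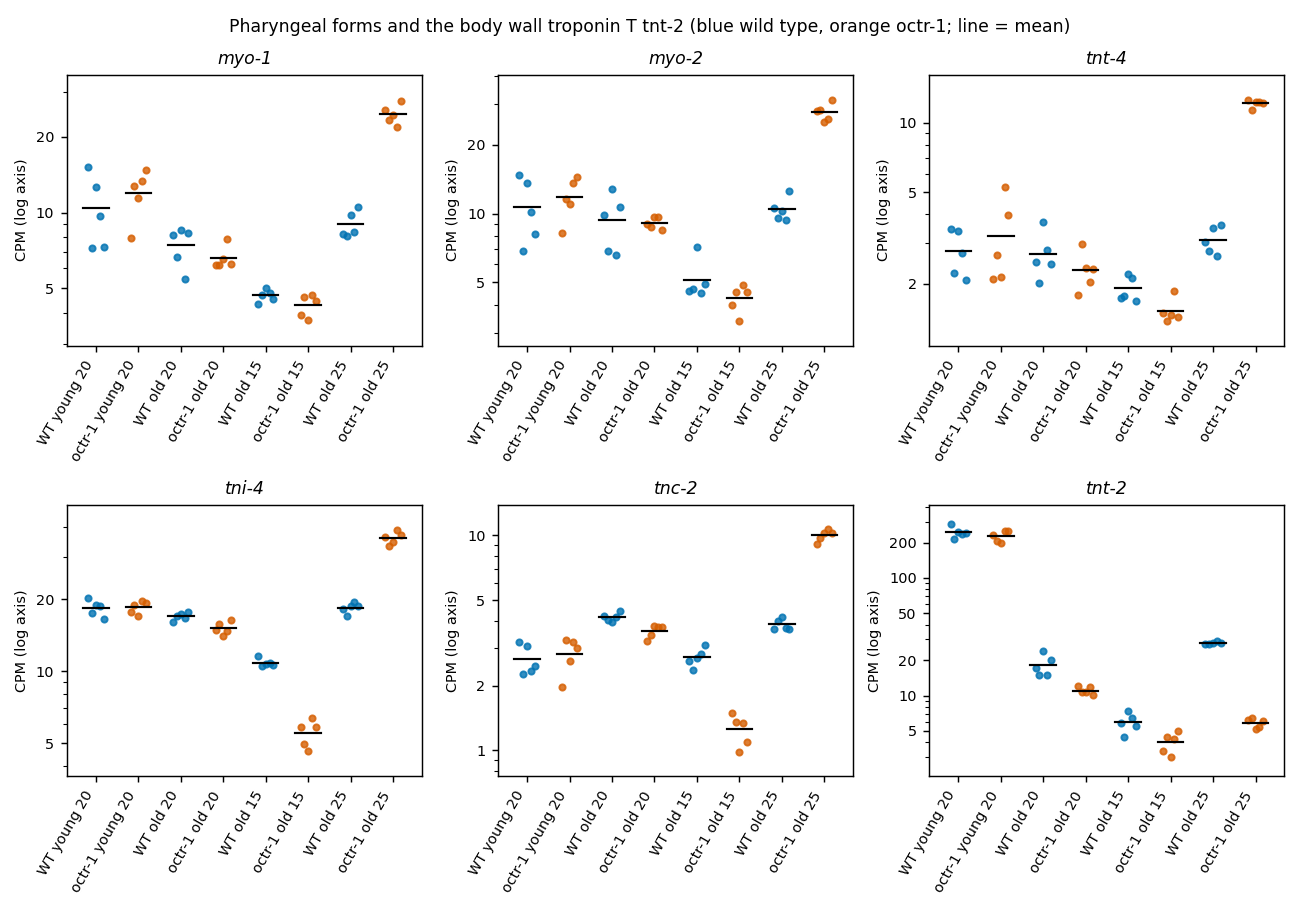
CPM on a log axis of the 5 pharyngeal genes and of tnt-2, a body wall troponin T, in the 8 groups; each point is a library (blue wild type, orange octr-1) and the line the group mean. Mutants at 25 °C lie above all other groups in the 5 pharyngeal genes (tnt-4 at 11.3 to 12.6 CPM), and below the wild type at 25 °C for tnt-2.

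In the body wall, tnt-2 fell from 27.4, 27.4, 27.7, 28.9 and 28.1 to 6.14, 6.47, 5.22, 5.40 and 6.02 CPM, the deepest fall of the members (log2 -2.25, SE 0.06, adjusted p = 1.4e-20, limma). unc-54 fell from 127, 135, 154, 138 and 149.9 to 58.2, 60.1, 48.3, 49.3 and 58.8 CPM (-1.36, SE 0.07), and myo-3 by 0.59 (SE 0.06). Neither tnt-2 nor unc-54 had a mutant library in the wild-type range. unc-27 fell by 1.42, pat-10 by 1.002 and mup-2 by 0.32, whereas the body wall troponins tnt-3, tni-1 and tni-3 rose by 0.22, 0.23 and 0.21. Of the shared genes, 10 of 12 fell, among them all 3 light chains (mlc-1 -0.90, mlc-2 -0.96, mlc-3 -0.40), all 5 tested thin filament genes (act-4 -0.36 to act-2 -0.64) and unc-15 (-0.29). The giants rose: ttn-1 by 1.01, unc-22 by 0.80 and unc-89 by 0.59. Here the 49 genes over 10 kb of exon were 32.7% higher and 51.0% lower, with a median of -0.10. Of the attachment genes unc-112 fell by 0.13, and deb-1, unc-95 and unc-97 stood at -0.01, -0.07 and -0.02 and did not pass in limma. With the total of reads alone deb-1 and unc-97 were called higher.

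The genotype effect at 25 °C differed from that at 20 °C in 10 genes upward and 13 downward of 32 (edgeR test of the difference over 20 libraries), against 28% and 26.5% of all genes. All 5 pharyngeal genes were among the higher ones, at 2.23 for tnt-4 (SE 0.17, adjusted p = 3.3e-13), 1.64 for myo-1, 1.61 for tnc-2, 1.48 for myo-2 and 1.16 for tni-4. myo-5 (1.30), tni-3 (0.58), ttn-1 (0.52), unc-22 (0.50) and unc-97 (0.33) made up the rest. In this difference 20.4% of the 49 genes over 10 kb of exon were higher and 63.3% lower (median -0.30). The part of length was not tested. The lowest was tnt-2 at -1.504 (SE 0.14, adjusted p = 1.2e-09, edgeR), followed by unc-54 (-1.14), unc-27 (-1.04), pat-10 (-0.77) and myo-3 (-0.73). Scaled by the total of reads only, the median of all genes moved by 0.15 and the counts were 13 higher and 11 lower. The calls of act-4 (-0.21) and unc-45 (-0.12) were then lost, with unc-45 at 0.02.

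Markers of other tissues moved with the mutation at 25 °C, where 36.8% of all genes were higher and 39.7% lower. Intestine markers fell in 8 of 8 (median -0.89; summed level 498 to 520 CPM in the wild type and 244 to 269 in mutants), epidermis markers in 7 of 8 with 1 higher (-1.40; 266 to 276 and 167 to 175 CPM) and germline markers in 8 of 10 with 1 higher (-0.60; 8182 to 8848 and 5358 to 5758 CPM). Neuron markers rose in 8 of 10 and fell in 1 (0.39; 280 to 293 and 307 to 338 CPM). None was at 0, and their part in the muscle differences was not tested.

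At 15 °C the mutants differed in 10 members upward and 12 downward (limma), against 24.1% and 27% of all genes, with a median of -0.0092 against -0.0078 for all genes. The pharyngeal troponins tnc-2 and tni-4 fell without overlap, and the call of tnt-4 depended on the setting. tnc-2 fell most, from 2.60, 2.38, 2.70, 2.80 and 3.10 to 1.499, 1.36, 0.985, 1.34 and 1.09 CPM without overlap (log2 -1.12, SE 0.13, adjusted p = 1.5e-06, limma), tni-4 fell by 0.98 (SE 0.08) and tnt-4 by 0.33. The call of tnt-4 was lost with DESeq2, with edgeR under RLE, without the filter, and without the wild-type library of replicate 3 or 4 or the mutant library of replicate 1, 2, 3 or 5. myo-1 (-0.14) and myo-2 (-0.27) did not pass. Light chains fell again (mlc-1 -0.66, mlc-2 -0.83, mlc-3 -0.32), as did lev-11 (-0.57), unc-87 (-0.41), tnt-2 (-0.58), unc-27 (-0.57), tni-3 (-0.68) and pat-10 (-0.83). unc-54 stood at 0.05 and did not pass. unc-89 rose most, from 56.7, 51.6, 64.2, 57.4 and 55.5 to 103.6, 109.8, 102, 107 and 100.1 CPM without overlap (0.86, SE 0.05, adjusted p = 2.3e-10, limma), beside unc-22 (0.77) and ttn-1 (0.62). In this comparison 87.8% of the 49 genes over 10 kb were higher (median 0.35). Of the 4471 genes of up to 1 kb of exon, 14.6% were higher and 36.6% lower (median -0.11). The fallen genes mlc-2, tnc-2, tni-4, unc-27, tni-3 and pat-10 are of that class, with 641 (mlc-2) to 979 bp (pat-10). The part of length in the values of the giants and of these short genes was not tested. Smaller rises were those of tnt-3 (0.41), tni-1 (0.35), act-2 (0.32), myo-3 (0.28), myo-5 (0.27), deb-1 (0.22) and unc-112 (0.16).

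Tested against 20 °C, the genotype effect at 15 °C differed in 3 genes upward and 5 downward, against 7.84% and 12.4% of all genes. tnc-2 was lowest at -0.95 (SE 0.15, adjusted p = 1.5e-05, edgeR), with tni-4 (-0.85), pat-10 (-0.66), mlc-2 (-0.55) and lev-11 (-0.50). Of the 49 genes over 10 kb of exon, 32.7% were higher and 4.08% lower in this difference, and the part of length was not tested. Among the members unc-89 was highest at 0.40 (SE 0.12, adjusted p = 0.022, edgeR), with act-2 (0.34) and unc-97 (0.27). The upward count was 6 with DESeq2, 5 with RLE scaling, and 5 without the old wild-type library of replicate 4 or the old mutant library of replicate 1, all at 20 °C. At 15 °C 7 of 8 intestine markers fell in mutants (median -0.61) and 7 of 10 neuron markers rose (0.38), and 4 epidermis markers fell and 1 rose. Of the 10 germline markers 5 rose (median 0.16). Of all genes 24.1% were higher and 27% lower in mutants at 15 °C. No marker was at 0, and their part was not tested.

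**Figure D4:**
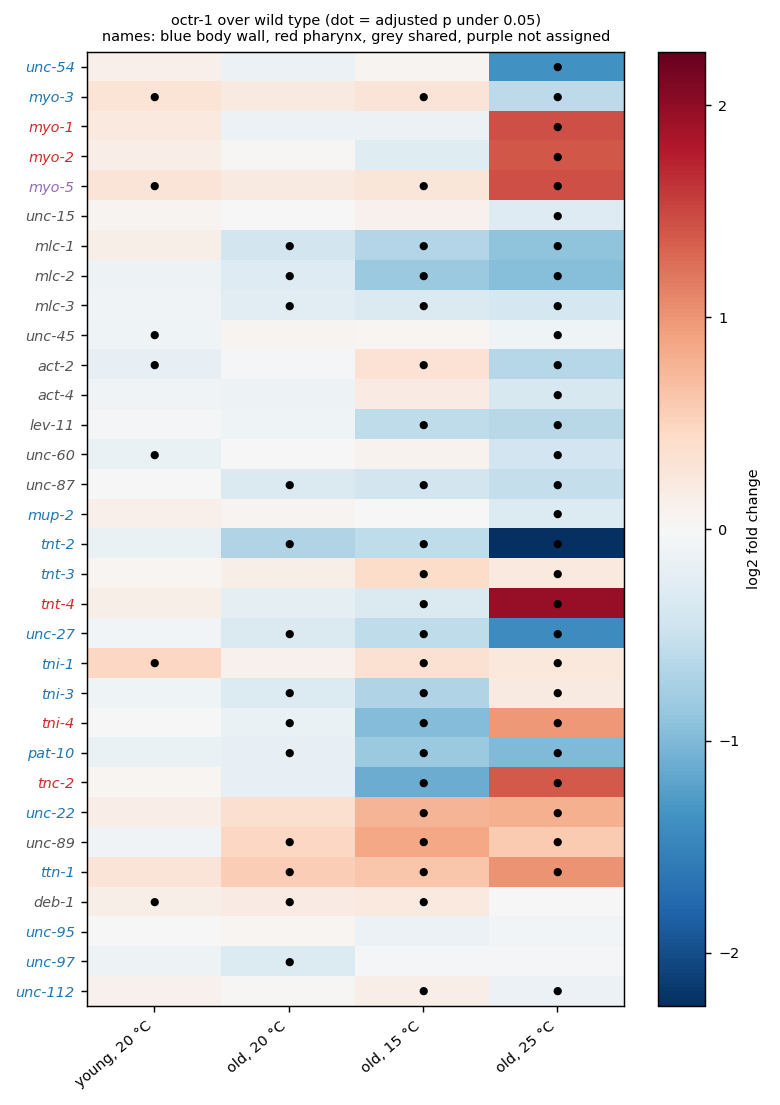
Log2 fold change of octr-1 over wild type for the 32 tested genes (rows, name colour by form). The columns are the young group and the old groups at 20, 15 and 25 °C, with a dot where the adjusted p was under 0.05. The pharyngeal genes are red at 25 °C (0.97 to 1.97), tnt-2 is the darkest blue (-2.25), and the young column is pale.

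The remaining comparisons set old animals of 1 genotype at different temperatures side by side, where days of adulthood differ too. They share their groups with each other and with the comparisons above, so their values are only set side by side. In the wild type at 15 °C against 20 °C, 4 members were higher and 18 lower (limma), against 30.5% and 33.4% of all genes, with a median log2 fold change of -0.35 against -0.00051 for all genes. tnt-2 was lowest, with 5.84, 4.45, 7.32, 6.40 and 5.49 CPM at 15 °C against 17.2, 14.9, 23.8, 14.9 and 20.1 CPM (-1.62, SE 0.14, adjusted p = 2.9e-07, limma). ttn-1 was highest, with 55.5, 50.7, 57.7, 56.7 and 53.2 CPM at 15 °C against 36.1, 26.0, 37.5, 23.5 and 33.9 CPM (0.82, SE 0.12, adjusted p = 8.4e-05, limma). Neither gene overlapped between temperatures. Of the 49 genes over 10 kb of exon, 46.9% were higher and 16.3% lower (median 0.12), and the part of length was not tested. All 5 pharyngeal genes were lower (-0.47 for tnt-4 to -0.84 for myo-2), and unc-54 was lower by 1.19 and myo-3 by 0.73.

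Against 25 °C, the wild type at 15 °C was higher in 6 and lower in 25 members (limma), against 38.2% and 40.8% of all genes, with a median of -0.77 against -0.02. All 10 troponins were lower, by 0.51 (tnc-2) to 2.26 (tnt-2), the latter with 27.4, 27.4, 27.7, 28.9 and 28.1 CPM at 25 °C (adjusted p = 3.9e-13, limma). unc-54 was lower by 1.66 and myo-3 by 1.54. The highest member was unc-97, with 54.1, 49.8, 50.7, 48.8 and 53.0 CPM at 15 °C against 23.5, 23.3, 22.7, 23.4 and 23.002 CPM (1.14, SE 0.04, adjusted p = 2.5e-16, limma). Both tnt-2 and unc-97 were clear of overlap, and act-4 (0.60) was next among the higher members.

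Between 25 and 20 °C the wild type was higher at 25 °C in 19 members and lower in 5 (edgeR), against 30% and 33.5% of all genes, with a median of 0.37 against -0.02. tni-1 was highest, with 13.7, 13.6, 14.4, 13.7 and 13.2 CPM at 25 °C against 6.16, 6.68, 7.79, 7.26 and 6.001 CPM (0.996, SE 0.07, adjusted p = 2.0e-10, edgeR). unc-97 was lowest, with 23.5, 23.3, 22.7, 23.4 and 23.002 CPM against 36.3, 34.01, 31.1, 34.5 and 33.7 CPM (-0.58, SE 0.05, adjusted p = 1.7e-09, edgeR). The groups of neither gene overlapped. None of the 5 pharyngeal genes passed in edgeR (-0.13 to 0.26), although myo-1 had an unadjusted p of 0.034 and 1 of the 5 was higher with DESeq2 and 2 with the total of reads alone. By contrast, 11 of 14 body wall genes were higher, mup-2 (0.86), tnt-3 (0.80) and myo-3 (0.75) after tni-1. All 3 giants were higher (0.31 to 0.48), though the calls of unc-22 and unc-89 were lost without the filter or without replicate 2 at 20 °C. That of unc-22 was also lost without replicate 3 at 25 °C. Among the 49 genes over 10 kb of exon 18.4% were higher and 63.3% lower (median -0.36), and the part of length was not tested.

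In mutants at 15 °C against 20 °C, 9 members were higher and 19 lower (limma), against 31.7% and 34.8% of all genes, with a median of -0.40 against -0.00025. All 5 pharyngeal genes were lower, by 0.59 (tnt-4) to 1.53 (tnc-2), the latter with 1.499, 1.36, 0.985, 1.34 and 1.09 CPM at 15 °C against 3.23, 3.45, 3.80, 3.75 and 3.75 CPM (adjusted p = 8.3e-10, limma). ttn-1 was highest at 0.90 (SE 0.06, adjusted p = 2.0e-09, limma), with 81.5, 81.6, 90.1, 84.5 and 85.4 CPM against 36.5, 47.1, 47.3, 45.7 and 47.7 CPM. No library of tnc-2 or ttn-1 lay in the range of the other temperature. mlc-2 (-1.52), tnt-2 (-1.503), tni-4 (-1.48) and mlc-1 (-1.41) came next above tnc-2. Of the 49 genes over 10 kb of exon, 69.4% were higher and 16.3% lower (median 0.29), and the part of length was not tested.

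Mutants at 15 °C against 25 °C were higher in 7 and lower in 23 members (limma), against 38.6% and 40.4% of all genes, with a median of -0.65 against -0.02. The 5 pharyngeal genes were the 5 lowest, at -2.54 (myo-1) to -3.01 (tnc-2), the latter with 9.12, 9.75, 10.2, 10.7 and 10.3 CPM at 25 °C (SE 0.10, adjusted p = 1.5e-16, limma). act-4 was highest, with 404, 482, 458, 513 and 533 CPM at 15 °C against 207, 233, 196, 228 and 203 CPM (1.14, SE 0.07, adjusted p = 5.7e-10, limma). Neither gene overlapped between the groups, and unc-97 followed at 1.13. With the total of reads only, the median of all genes moved by -0.17.

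In the deposited table of mutants at 25 °C and 20 °C the group names of the columns are exchanged relative to the same libraries in other tables, and the names of the other tables were used. Mutants at 25 °C against 20 °C were higher in 17 members and lower in 12 (limma), against 37.3% and 37.4% of all genes, with a median of 0.31 against 0.01. tnt-4 was highest, with 12.6, 11.3, 12.3, 12.3 and 12.1 CPM at 25 °C against 1.78, 2.99, 2.35, 2.04 and 2.31 CPM (2.39, SE 0.10, adjusted p = 3.0e-17, limma), and the other pharyngeal genes were at 1.88 (myo-1), 1.58 (myo-2), 1.45 (tnc-2) and 1.23 (tni-4). tnt-2 was lowest, with 6.14, 6.47, 5.22, 5.40 and 6.02 CPM against 12.0, 10.6, 10.7, 11.8 and 10.1 CPM (-0.93, SE 0.07, adjusted p = 1.0e-11, limma). Both lay clear of overlap. unc-54 was at -0.76 and myo-3 at 0.00, where the wild type had 0.39 (not past the threshold in edgeR) and 0.75. All 3 giants were higher (0.46 to 0.98). Among the 49 genes over 10 kb of exon 22.4% were higher and 73.5% lower (median -0.76), and the part of length was not tested. With the total of reads only, the median of all genes moved by 0.22 and the calls were 21 higher and 8 lower.

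**Figure D5:**
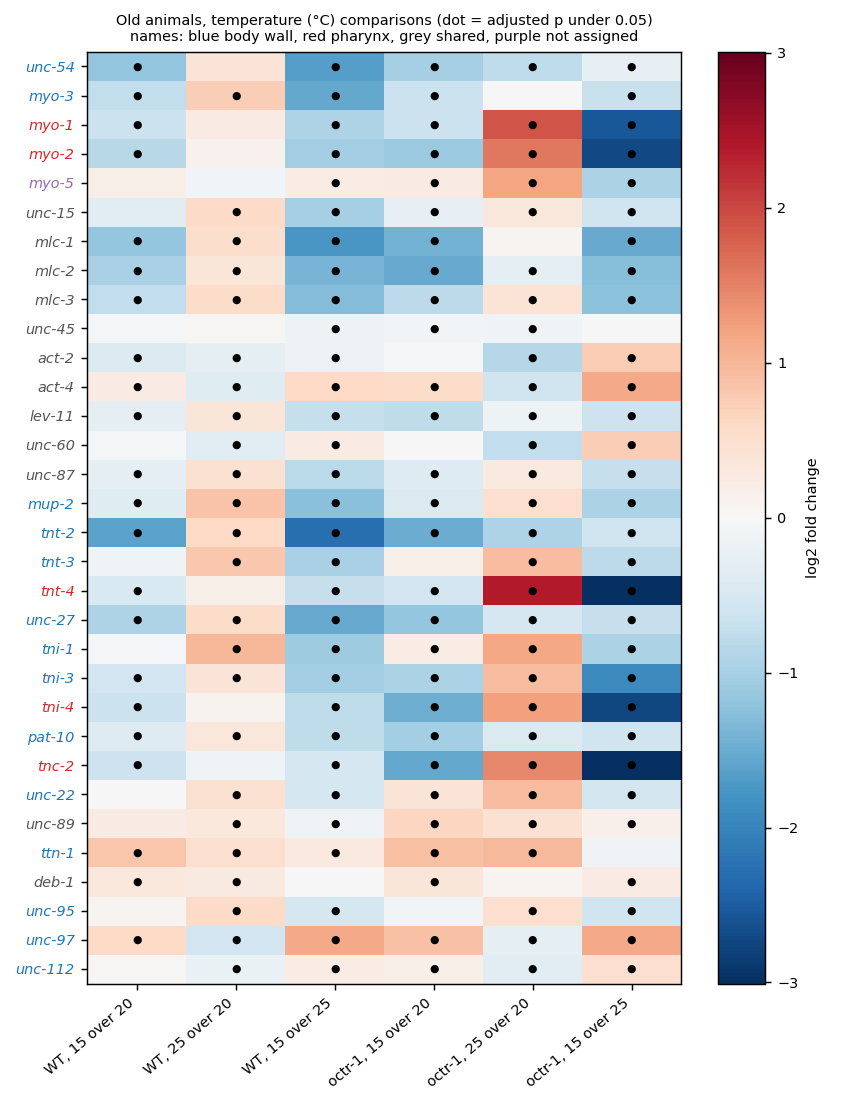
Log2 fold change between temperatures in old animals for the 32 tested genes (rows, name colour by form), with 3 wild-type and 3 octr-1 comparisons (columns) and a dot where the adjusted p was under 0.05. The red-named pharyngeal genes are near 0 in the wild type at 25 over 20 °C (-0.13 to 0.26) and at 1.23 to 2.39 in mutants.

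Tissue markers moved between temperatures too. At 15 °C against 20 °C 30.5% of all genes were higher and 33.4% lower in the wild type, and 31.7% and 34.8% in mutants. At 25 °C against 20 °C these shares were 30% and 33.5% in the wild type, and 37.3% and 37.4% in mutants. At 15 °C against 20 °C all 8 intestine markers were lower and all 10 neuron markers higher in both genotypes (medians -1.11 and 0.53 in the wild type, -1.80 and 0.70 in mutants), and at 25 °C against 20 °C 5 of 8 intestine markers were higher in the wild type and 5 lower in mutants (medians 0.30 and -0.75). Their part in the muscle values was not tested.

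Other genes of muscle, and non-muscle actomyosin genes, were read from lists that hold no member. With age in the wild type 45.9% of all genes were higher and 39.2% lower, with a median of 0.09. Of 18 further attachment genes, 7 rose and 11 fell with age in the wild type (median -0.22), with dim-1, an immunoglobulin-repeat protein, at -2.39 and the alpha-actinin gene atn-1 at -0.99. Of 10 calcium handling genes 5 rose and 2 fell (median 0.22): csq-1, the calcium store protein calsequestrin, was at -2.18 and egl-19, a calcium channel of the muscle membrane, at 0.97. Of 7 chaperone genes listed for muscle folding, 5 fell and 1 rose (median -1.18; hsp-110 -1.36, dnj-13 -1.19). Their summed level in the young wild type was 18010 ± 638 CPM (SD, n = 5), beside 6842 ± 557 for the 34 members. Any reads from cells other than muscle are counted in it. Of 9 other actin regulators 3 rose and 4 fell, with the profilin gene pfn-1 at -1.41 and the gelsolin-like gsnl-1 at -1.43, a split near that of all genes. Of 7 dystrophin complex genes 2 rose, dys-1 by 1.73, and 2 fell, sgcb-1 by 0.86. Of 11 receptor and channel genes 5 rose and 2 fell (slo-1 1.34, twk-18 -1.71), and of 4 tested muscle transcription factors 2 rose and 1 fell (mef-2 0.69, hlh-1 -0.50). Of 7 non-muscle actomyosin genes 2 rose and 4 fell, the intestinal actin act-5 by 2.76 and nmy-1 rising by 0.72. act-5 is also in the list of intestine markers above.

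In mutants against the wild type at 25 °C, 36.8% of all genes were higher and 39.7% lower with a median of -0.01, and the lists stood as follows. The receptor and channel genes were higher in 10 of 11 (median 0.64; the acetylcholine receptor subunits unc-38 1.29 and lev-8 1.11). The dystrophin complex genes were higher in 6 of 7 (0.54; sgca-1 0.86, dyb-1 0.65), and 4 of 5 transcription factors were higher (0.73), with pha-4, the pharyngeal organ identity factor, at 0.80 and unc-120 at 0.73. Calcium handling genes were higher in 6 and lower in 3 of 10 (0.54), csq-1 at -1.51 and jph-1 at 1.07. Attachment genes were higher in 8 and lower in 8 of 18 (-0.03; uig-1 0.87, atn-1 -0.73), and other actin regulators higher in 3 and lower in 4 of 9 (0.04; pfn-1 -0.65, gsnl-1 0.50), both near the shares of all genes. Chaperone genes were lower in 5 and higher in 1 of 7 (-0.22; hsp-110 -0.76, hsp-1 -0.64), and non-muscle actomyosin genes lower in 5 of 7 (-0.12; act-5 -0.80, nmy-2 -0.30).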

How the data were processed

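The 40 libraries of polyadenylated RNA came from a stranded kit, per the labels' protocols. Reads were processed with HISAT2 2.2.1, featureCounts and DESeq2 1.31.16 on genome ce10, per the submitters' processing notes, which give no order or settings. The 9 deposited tables hold the authors' normalized counts (a signal: per-table DESeq2 size factors applied to gene counts) and the authors' log2 fold change, which was used only to check column names. Multiplying each of the 90 columns by 1 factor (0.794 to 1.25) gave whole reads for 100% of values within 0.001 of a read, with 70 pairs of identical columns across tables and 40 different libraries of 27.88 to 41.0 M reads. In 1 table the group names of the 10 columns were exchanged relative to identical columns of other tables. They were renamed, after which 1171 of 1171 signs of the authors' log2 fold change matched, against 0 as named.

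Within a deposited table, limma 3.58.1 was fitted to log2(value + 1), trended and robust, over genes with at least 10 in at least 5 libraries, so that a fold change is on the log2(value + 1) scale and understates low genes. Comparisons of age, the wild type at 25 °C against 20 °C, and the 3 differences of genotype effects (20 libraries each) used edgeR 4.0.16, quasi-likelihood with TMM scaling, on the recovered reads. P-values were adjusted by Benjamini-Hochberg over all genes tested, and a gene was called at an adjusted p under 0.05. CPM were scaled by TMM over all 40 libraries, and exon lengths came from Ensembl release 115. No genome coordinates are given, since the annotation is of another build than ce10, and no sequences are printed. The alternatives were DESeq2 1.42.0, edgeR with TMM, RLE or total reads, a pseudocount of 0.1, no filter, the replicate block, column names as given, and leaving out each library. The code was tested on simulated counts that had the same spread for every gene. That test does not measure error rates at the spread of these libraries.

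The members and gene lists were chosen with earlier results of these data known. Library values are given for the 4 muscle heavy chains with age and, in each comparison, for the called member of largest rise and deepest fall, with further members shown for the pharynx and body wall at 25 °C. From each other list the 2 genes of smallest adjusted p are named.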

Additional observations from a re-analysis of the deposited data

Results flagged for a closer look

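In 13 of 256 sets of 5 libraries (a member with reads in a group) the highest or lowest library stood apart from the others by Dixon's criterion, which chance meets in about 1 in 20 sets. They fell on 11 members. The wild-type library of replicate 3 at 15 °C was highest for unc-54 (59.7 CPM), myo-2 (7.13 CPM) and tni-3 (3.01 CPM), and the old mutant library of replicate 4 at 20 °C was highest for myo-1 (7.86 CPM), unc-87 (40.2 CPM) and tni-1 (8.08 CPM). Single high libraries were replicate 2 of the wild type at 25 °C for mlc-3 (50.8 CPM), replicate 1 of the wild type at 15 °C for tni-4 (11.6 CPM), replicate 4 of mutants at 15 °C for tnt-4 (1.87 CPM) and replicate 5 of mutants at 25 °C for tni-1 (17.9 CPM). Single low libraries were, in mutants, replicate 1 at 15 °C for unc-60 (329 CPM), replicate 3 at 15 °C for unc-87 (25.9 CPM) and replicate 1 at 20 °C for ttn-1 (36.5 CPM).

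The genotype effect differed between groups, by an edgeR test of the difference, for the following members. Old against young at 20 °C, the log2 difference was -0.58 for mlc-1, -0.57 for tnt-2, -0.39 for tni-1, 0.16 for unc-45 and 0.53 for unc-89. At 25 °C against 20 °C it was positive for tnt-4 (2.23), myo-1 (1.64), tnc-2 (1.61), myo-2 (1.48), myo-5 (1.30), tni-4 (1.16), tni-3 (0.58), ttn-1 (0.52), unc-22 (0.50) and unc-97 (0.33). It was negative there for tnt-2 (-1.50), unc-54 (-1.14), unc-27 (-1.04), pat-10 (-0.77), myo-3 (-0.73), mlc-2 (-0.62), act-2 (-0.55), lev-11 (-0.50), mlc-1 (-0.44), unc-60 (-0.39), mup-2 (-0.33), act-4 (-0.21) and unc-45 (-0.12). At 15 °C against 20 °C it was 0.40 for unc-89, 0.34 for act-2 and 0.27 for unc-97, and -0.95 for tnc-2, -0.85 for tni-4, -0.66 for pat-10, -0.55 for mlc-2 and -0.50 for lev-11.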

How the results depend on the processing

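The count of members called stayed within 1.5 times its value in 93 of 94 results of other settings and in 178 of 180 results without 1 library. The exceptions were the difference of genotype effects between ages, with 3 called without the filter on low values against 5, and the young genotype comparison, with 4 to 9 called without 1 library against 7. With the total of reads as the only scaling, the age value of myo-1 in the wild type was 0.11 and that of myo-2 was 0.41, and myo-2 in mutants was at 0.19, all reversed in sign. Under that scaling act-2 was at -0.08 in young animals and no longer called. It also lost the calls of act-4 and unc-45 in the difference of genotype effects at 25 °C against 20 °C. The age value of myo-2 in the wild type ran from -0.30 to 0.0049 without 1 library. With column names as given, mutants at 25 °C against 20 °C had tnt-2 at 0.93 and tnt-4 at -2.39, the signs being exchanged by construction. Without the filter unc-89 was no longer called in the differences of genotype effects by age (0.52) and at 15 °C (0.39). Except where a setting's construction gives it, the cause was not tested.

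The replicate numbers did not pair the samples: correlations of same-numbered libraries ran from -0.20 to 0.24, and in none of 12 comparisons were all over 0.1. With the replicate block the calls were 7 in the young genotype comparison as without it, 28 against 27 with age in the wild type (where myo-1 at -0.44 was then called), 24 against 22 in the wild type at 15 °C against 20 °C, 25 against 24 at 25 °C against 20 °C, and 6 against 5 in the difference between ages. The block lost the calls of myo-5 in young animals and of tni-4 at 20 °C in old ones between genotypes. Depth was lowest for tnc-2 (33 reads), tni-3 (42) and tnt-4 (46) in their shallowest libraries.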
